A study of Mus musculus with 3 samples.

Results

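Surface antigens used to sort neural stem cells and their progeny were examined through 10 genes that encode them or an enzyme that makes them: Prom1, Cd24a, Fut4, Vcam1, Cd44, Cd9, Cd81, Ncam1, Thy1 and Lrig1. They were taken by symbol, as the 10 of 22180 measured genes that carry these names, and all 10 had a probe set naming that gene alone. Where a gene had several such probe sets, the one with the highest mean over the arrays was used.

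The study hybridised biotin-labelled total RNA from V-SVZ neurospheres to 3 expression arrays, 1 per culture label, and has no second group. The V-SVZ is the stem cell region along the walls of the lateral ventricles, and neurospheres are floating colonies grown from its dissociated cells. The donors were wild-type (WT) CD1 mice labelled P8, that is postnatal day 8, with day 7 or 8 in the protocol. Cells were plated at 10 per microlitre and grown for 7 days in 10 ng/ml FGF and 20 ng/ml EGF with B27 and heparin, pups being cultured independently. No antigen was used to sort the cells, so each value below is RNA of a whole, mixed culture. A transcript present in few cells and one present at a low level in many cannot be told apart in such RNA, and RNA does not measure the antigen on the surface. The labels do not state that an array corresponds to 1 pup, so the spread between arrays may be technical.

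In the V-SVZ, stem cells are a kind of astrocyte that touches the ventricle with a thin process bearing a primary cilium. They can rest in quiescence or become activated, when they make transit-amplifying cells and then migrating neuroblasts. No single surface antigen marks them, and sorts combine several. Prominin-1 (CD133) lies on the ciliated tip of stem cells and on ependymal cells, CD24 is strong on neuroblasts and weaker on ependymal cells, and the Lewis X glycan (CD15), VCAM1, tetraspanins and LRIG1 have been used to enrich stem cells or their quiescent fraction. Antigens of later or other cells, such as THY1 on neurons and polysialylated NCAM on neuroblasts, are used to leave cells out or to sort them apart.

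Of the 10 sorting antigens, 9 had a signal above the reference level, against 59.1% of all 22180 genes. The reference level stands for unspecific signal and is the 95th percentile, on the same array, of 1405 probe sets for receptors of the nose (olfactory and vomeronasal), at 5.63, 5.53 and 5.71 on arrays 1, 2 and 3 (signals are on the log2 scale throughout). A gene was called above it when limma's one-sided moderated test gave a Benjamini-Hochberg adjusted p under 0.05 over all genes. The median margin over the reference level was 5.14 log2 units for the 10 antigens and 0.76 for all genes. Fut4 was the 1 antigen not above. With the 90th percentile as the level, all 10 antigens and 66.7% of all genes were above. With the 99th percentile it was 9 antigens and 44.9% of all genes.

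**Figure D1:**
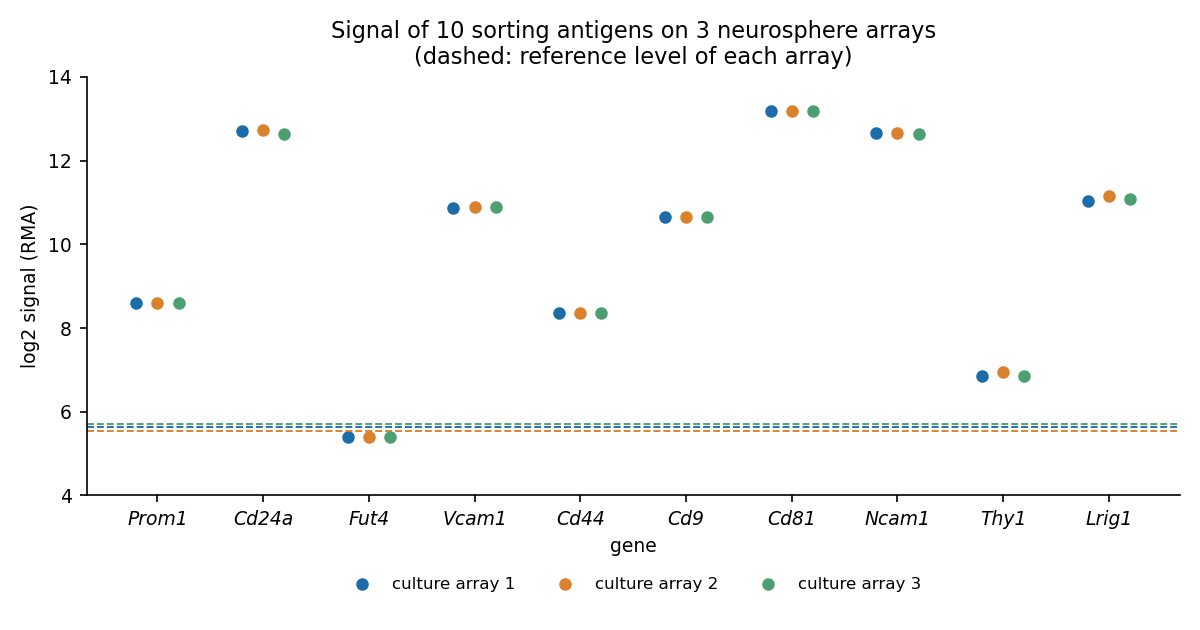
Log2 signal (vertical axis) of the 10 sorting antigens (horizontal axis) on the 3 arrays, 1 point per array, with each array's reference level as a dashed line of the same colour. The points of a gene nearly coincide, and the 3 Fut4 points at 5.40 lie under all 3 lines.

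The shared spread limits what these calls say. The prior degrees of freedom of the fit were infinite, so genes of similar signal were given 1 common spread and the spread of the single gene did not enter. The very small p-values that strong genes get this way are not printed. An exact sign-flip test on 1 gene over 3 arrays cannot go below a one-sided p of 0.125. Signals of different probe sets are not ranked against each other, since probes bind with different strength. Each antigen is set against the reference level of its own arrays only.

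Prom1, which encodes prominin-1, a pentaspan protein of membrane protrusions and cilia, had a signal of 8.59 on each of the 3 arrays, 2.96 ± 0.090 above the reference level (mean ± SD of the 3 margins, n = 3, as for all margins below). For a gene with equal values on all 3 arrays, such as Prom1, that SD is the shift of the reference level between arrays. It then holds no spread of the gene itself. A single receptor probe set of 1405 reached the Prom1 signal on each array. Its call held at the 99th percentile, with a margin of 2.19. Of the 6 measured genes listed with it, 5 were above the reference level (83.3%, against 59.1% of all genes). The tweety family membrane protein genes Ttyh1 (12.83 ± 0.0030) and Ttyh3 (12.77) and Hdac6 (8.68 ± 0.032), a deacetylase of the cilium's tubulin, were above. Ttyh2 was above as well, at 10.03 ± 0.016. The paralog Prom2 lay close to the level (5.94, margin 0.31 ± 0.090) and its call ended at the 99th percentile. Cdhr1, a protocadherin that works with prominin-1 in photoreceptors, was not above (5.44 ± 0.071).

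Fut4 encodes a fucosyltransferase that can add the fucose of the Lewis X (CD15, SSEA-1) glycan, the only antigen among the 10 that is a sugar and not a protein. Its signal was 5.40 on each of the 3 arrays and lay under the reference level on every array, by a margin of -0.22 ± 0.090 (limma adjusted p = 1). On arrays 1, 2 and 3, 119, 95 and 128 of the 1405 receptor probe sets were as high or higher. The identical Fut4 value stood in 125, 122 and 116 other probe sets of arrays 1, 2 and 3, which include 5, 5 and 2 receptor probe sets, so many probe sets hold the same number. With the 90th percentile as the level the margin turned to 0.14 and passed (limma adjusted p = 0.0359), so the Fut4 signal lay between the 90th and the 95th percentile of the receptors.

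Another enzyme of the same reaction was above the reference level. Fut9, the fucosyltransferase known for making most Lewis X of the mouse brain, had 8.93 on each of the 3 arrays, with a margin of 3.30 ± 0.090. Of 10 fucosyltransferase genes, 6 were above (60%, near the 59.1% of all genes). Above besides Fut9 were Fut8 (9.87), which fucosylates the core of N-glycans, Pofut1 (6.96) and Pofut2 (9.04 ± 0.034), which fucosylate proteins directly, and the family members Fut10 (7.03) and Fut11 (9.35 ± 0.0071). Fut7 (4.77), which makes sialyl Lewis X in leukocytes, and Fut1 (5.04 ± 0.13) and Fut2 (5.11 ± 0.14), which make H antigens, were not above. The supply of the donor sugar was measured too. All 5 measured genes of GDP-fucose supply were above (median margin 2.28), among them the synthesis genes Gmds (7.46 ± 0.016) and Gfus (8.40 ± 0.042), the salvage genes Fcsk (7.90) and Fpgt (7.90 ± 0.036), and the Golgi transporter gene Slc35c1 (7.15 ± 0.056). The arrays do not measure the Lewis X glycan itself.

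Cd24a encodes the small, heavily glycosylated, GPI-anchored protein CD24. Its signals were 12.71, 12.72 and 12.64 on arrays 1, 2 and 3, 7.07 ± 0.13 above the reference level, and no receptor probe set reached them. A second probe set of Cd24a read 8.59, 8.75 and 8.59, which is 4.05 log2 units lower, and was also over the reference level on all 3 arrays. Intronless copies of this gene are known in the mouse genome, and whether either probe set reads them was not tested. Both probe sets held the call of Cd24a.

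Thy1, the gene of the small GPI-anchored immunoglobulin-domain protein THY1 (CD90) of neurons and mesenchymal cells, was above the reference level, but not under every choice of it. Its signals were 6.85, 6.94 and 6.85 on arrays 1, 2 and 3, with a margin of 1.25 ± 0.14. Of the 1405 receptor probe sets, 4, 3 and 8 reached it on arrays 1, 2 and 3. At the 99th percentile its margin was 0.48 (limma adjusted p = 0.033). The call ended with the other reference genes, 142 probe sets of bitter taste receptors, defensins and keratin-associated proteins, where the margin was 0.44 (limma adjusted p = 0.102) and 43.5% of all genes were above.

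The anchor that Thy1 and Cd24a proteins share is made by a dedicated pathway. All 23 measured genes of GPI anchor synthesis and attachment were above the reference level (median margin 2.80), against 59.1% of all genes. Examples are Piga (6.79 ± 0.10), Pigc (7.49) and Pigh (9.05 ± 0.056), subunits of the enzyme that starts the anchor, and Pigl (8.42), which acts next. Others are Pigg (6.99) and the transamidase gene Pigk (8.43 ± 0.053), which attaches the anchor. The calls of Piga and of Pigw and Dpm3, the last pair named after their values were seen, ended at the 99th percentile. Of 13 genes whose products bind THY1 or CD24, 4 were above (30.8%, against 59.1% of all genes, median margin -0.24). These were the integrin genes Itgav (10.47), Itgb5 (9.37, 9.38 and 9.37 on arrays 1, 2 and 3) and Itgb3 (5.94, ending at the 99th percentile) and the syndecan gene Sdc4 (9.92 ± 0.045). The 9 not above were genes of blood cell or platelet receptors, including Itgam (4.97), Itgb2 (5.64), Selp (4.90) and the Siglec genes Siglec1 (5.21 ± 0.35) and Siglece (4.82).

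**Figure D2:**
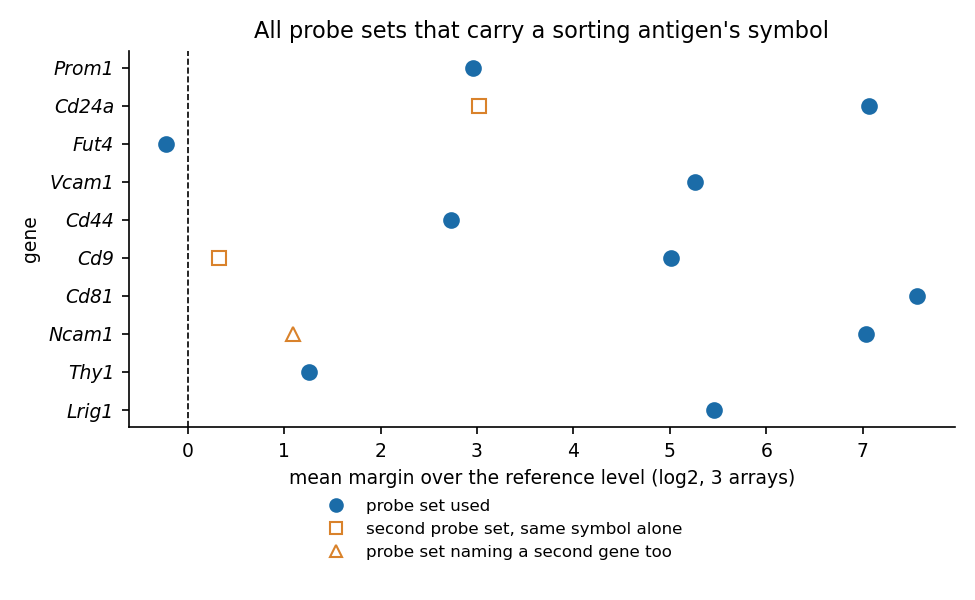
Mean margin over the reference level in log2 units (horizontal axis) of every probe set that carries a sorting antigen's symbol (vertical axis), with the dashed line at a margin of 0. Filled circles are the 10 probe sets used, open squares second probe sets of Cd24a (3.02) and Cd9 (0.33), and the open triangle a set naming Ncam1 and Gm11149 (1.09).

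Cd9 and Cd81 encode tetraspanins, proteins with 4 membrane passes that gather integrins and other partners into membrane domains. Cd81 had 13.19 on each of the 3 arrays, with a margin of 7.56 ± 0.090. Cd9 had 10.64 on each of the 3 arrays, with a margin of 5.02 ± 0.090. The 2 probe sets of Cd9 were far apart: the second read 5.95 on each array, 4.69 log2 units lower. It exceeded the reference level on all 3 arrays by 0.33, while 39, 22 and 52 receptor probe sets of 1405 were as high or higher on arrays 1, 2 and 3. Taking the lowest probe set per gene left Cd9 above (margin 0.33, limma adjusted p = 2.51e-05), and the median over probe sets gave a margin of 2.67. The p-value of the lowest probe set rests on the shared spread, since its values were equal on all 3 arrays. Its 5.95 lay under the 99th percentile of the receptors, which was 6.42, 6.09 and 6.69 on arrays 1, 2 and 3.

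The tetraspanin family as a whole had 22 of 30 measured genes above the reference level (73.3%, against 59.1% of all genes), with Cd9 and Cd81 among them and a median margin of 2.19. Cd63 (11.02 ± 0.0018), of late endosomes and exosomes, Cd151 (10.40), a partner of laminin-binding integrins, Cd82 (6.82 ± 0.12) and Cd37 (5.84 ± 0.073) were above, the last pair ending at the 99th percentile. Cd53 (5.24 ± 0.062), a tetraspanin of leukocytes, Tspan1 (3.37), Tspan8 (3.70), Tspan10 (5.11 ± 0.20), Tspan32 (5.38) and the retinal gene Rom1 (5.58) were not above. Of 11 measured genes of proteins that bind CD9 or CD81, 8 were above (72.7%). They included the immunoglobulin superfamily partners Ptgfrn (8.49 ± 0.053) and Igsf8 (6.34 ± 0.030, ending at the 99th percentile) and Igsf3 (8.79), and the integrin genes Itga6 (10.93) and Itgb1 (10.26). Ifitm3 (10.48 ± 0.019), Hbegf (7.82) and Epcam (6.44 ± 0.025, ending at the 99th percentile) were the others above, and Itga3 (5.38), Cd36 (4.60) and Ifitm1 (4.06 ± 0.030) were not above.

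Cd44 encodes the main cell surface receptor for hyaluronan, an unsulfated sugar polymer of the matrix. Its signal was 8.35 on each of the 3 arrays, with a margin of 2.73 ± 0.090, and 1 receptor probe set of 1405 reached it on each array. Of 16 measured genes of hyaluronan synthesis, breakdown and binding, 12 were above the reference level (75%, against 59.1% of all genes, median margin 2.19). Among the synthases, Has2 had 8.37, 8.44 and 8.19 on arrays 1, 2 and 3 and was above, while Has1 (4.90) and Has3 (5.37 ± 0.25) were not. The breakdown genes Hyal2 (9.76 ± 0.033), Hyal3 (7.04 ± 0.031) and Cemip2 (7.30 ± 0.14) were above, and Cemip (5.34 ± 0.013) was not. Hmmr (7.03 ± 0.035), a hyaluronan-binding protein of the spindle, was above. Lyve1, the CD44 relative of lymphatic vessels, exceeded the level by 0.19 ± 0.080 and its call ended at the 99th percentile. Stab2 (4.96 ± 0.019), a hyaluronan scavenger receptor, was not above. The 6 other genes above were the cytoskeletal linkers Ezr, Rdx and Msn and the hyaluronan-binding proteoglycan genes Vcan, Bcan and Ncan.

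Vcam1 encodes an immunoglobulin-domain adhesion protein that holds the end feet of V-SVZ stem cells at the ventricle and is also induced on inflamed vessels. Its signals were 10.86, 10.90 and 10.90 on arrays 1, 2 and 3, with a margin of 5.26 ± 0.093, and 1 receptor probe set of 1405 reached it on each array. The list of its integrins and of related adhesion genes had 6 of 13 above the reference level (46.2%, against 59.1% of all genes, median margin 0.12). The integrin chain genes differed in their calls. Itgb1 (10.26) was above, Itga4 (5.17), the alpha chain of the classical VCAM1 receptor VLA-4, was not, and Itga9 (5.89, margin 0.26 ± 0.090), the alpha chain of a second receptor, was above but ended at the 99th percentile. Most vessel and leukocyte adhesion genes of the list, such as Icam1 (5.61 ± 0.15), Icam2 (4.87 ± 0.055), Sele (5.17), Madcam1 (5.74) and Itgad (4.93 ± 0.25), were not above. Itgb7 (5.84 ± 0.059) and Icam5 (5.77, limma adjusted p = 0.0472) were above and ended at the 99th percentile. The linker genes Ezr (9.77 ± 0.050) and Msn (10.70 ± 0.023) were above. Without array 1 the list had 3 of 13 above, against 12504 of all 22180 genes.

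Ncam1 encodes the neural cell adhesion molecule, which carries polysialic acid on migrating neuroblasts. Its signals were 12.66, 12.67 and 12.64 on arrays 1, 2 and 3, with a margin of 7.03 ± 0.10, and no receptor probe set reached them. A further probe set named both Ncam1 and the long noncoding RNA gene Gm11149 and read 6.71, 6.70 and 6.74. That is 5.94 log2 units lower, and it was not used, since its signal cannot be given to 1 gene. Of 12 genes of the NCAM and L1 families and of sialic acid chains, Ncam1 included, 11 were above the reference level (91.7%, median margin 1.77). The share of all genes was 59.1%. Above the 99th percentile were 7 of the 12, against 44.9% of all genes. The polysialyltransferase genes St8sia2 (6.70, margin 1.08 ± 0.090) and St8sia4 (margin 0.45 ± 0.23) were both above and both ended at the 99th percentile. St8sia4 read 6.10, 6.20 and 5.91 on arrays 1, 2 and 3. The adhesion genes Ncam2 (10.56 ± 0.0098), Nrcam (10.35), Nfasc (10.07) and Chl1 (7.97, 8.11 and 7.90 on arrays 1, 2 and 3) were above, and L1cam (6.48 ± 0.13) ended at the 99th percentile. The ganglioside synthase genes St8sia1 (7.68 ± 0.041) and St8sia5 (7.11 ± 0.0096) and the sialyltransferase gene St8sia3 (6.14 ± 0.044, ending at the 99th percentile) were above. St8sia6 (5.71, limma adjusted p = 0.229) was the 1 gene of the list not above.

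Lrig1 encodes a leucine-rich repeat protein that restrains receptors of the EGF receptor family and marks quiescent stem cells in several tissues. Its signals were 11.03, 11.16 and 11.08 on arrays 1, 2 and 3, with a margin of 5.46 ± 0.14, and 1 receptor probe set of 1405 reached it on each array. Both paralogs were above the reference level, with Lrig2 at 8.41 ± 0.12 and Lrig3 at 8.41 ± 0.042. So were the EGF receptor family genes that LRIG1 acts on: Egfr (11.42), Erbb2 (7.97), Erbb4 (11.05 ± 0.038) and Erbb3 (6.07, ending at the 99th percentile). The receptor genes Met (5.61, limma adjusted p = 0.898) and Ret (5.54 ± 0.13) were not above. With the relatives Lrrn1 (12.14), Lrrn2 (8.13) and Lrrn3 (10.02 ± 0.034), 10 of 12 genes of this list were above, Lrig1 included. That is 83.3%, against 59.1% of all genes, with a median margin of 2.79. The medium contained EGF in all 3 cultures, so no value without it exists here.

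**Figure D3:**
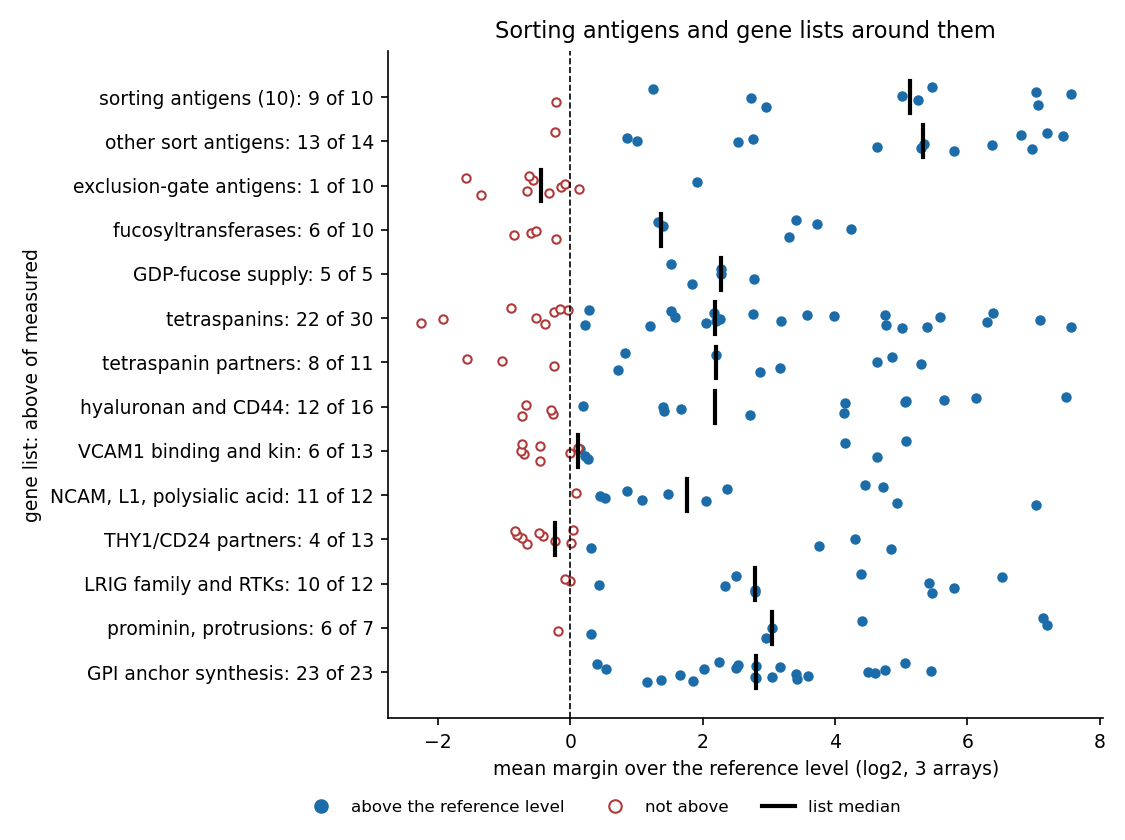
Mean margin over the reference level in log2 units (horizontal axis) of each measured gene in the sorting antigens and 13 lists around them (vertical axis, with the number above of those measured). Filled points were above, open points not, the thick bar is the list median, and exclusion-gate antigens (median -0.44) lie mostly left of the dashed line at a margin of 0.

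Other antigens that sorts pair with the 10 were measured beside them. Of 14, 13 were above the reference level (92.9%, against 59.1% of all genes, median margin 5.33). They included Egfr (11.42), whose labelled ligand picks out activated stem cells and transit-amplifying cells, Slc1a3 (12.60 ± 0.025), which encodes GLAST, Itga6 (10.93), Itgb1 (10.26), Itgb8 (11.99, 12.02 and 11.99 on arrays 1, 2 and 3) and the oligodendrocyte precursor antigen gene Pdgfra (10.97 ± 0.0017). Itgax (5.39 ± 0.14), a leukocyte integrin gene, was the 1 not above. Sdc1 and L1cam ended at the 99th percentile.

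Antigens used to gate blood and vessel cells out were mostly not above the reference level, with 1 of 10 measured above (10%, median margin -0.44, against 59.1% and 0.76 for all genes). Ptprc, the gene of the leukocyte antigen CD45, had 4.27, 4.18 and 4.36 on arrays 1, 2 and 3, a mean margin of -1.35. Pecam1 (5.30), the gene of the endothelial antigen CD31, Itgam (4.97), Tek (4.998), Cdh5 (5.48 ± 0.058), Eng (5.55 ± 0.11) and Cd34 (5.75 ± 0.046, limma adjusted p = 0.079) were not above, nor were Cd3e (5.06 ± 0.22) and Ly6g (4.04 ± 0.49). Mcam (7.54 ± 0.020), the gene of CD146 on endothelial and mural cells, was above. At the 90th percentile the count was 4 of 10, against 66.7% of all genes.

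Marker lists of the cell types that carry these antigens gave the following counts. All 9 measured markers of V-SVZ stem cells passed, with the defining genes Sox2 (11.39 ± 0.073), Nes (8.50 ± 0.035), Fabp7 (13.73) and Gfap (12.91). Of 8 astrocyte markers 7 were above (87.5%, against 59.1% of all genes) and of 10 oligodendrocyte lineage markers 8 (80%). The defining astrocyte genes Aqp4 (12.44), Aldh1l1 (11.42 ± 0.0076) and S100b (7.96 ± 0.040) were above, and Gjb6 (5.11) was not. Of the oligodendrocyte lineage, the defining genes Pdgfra, Olig2 (11.37 ± 0.0075), Sox10 (10.26 ± 0.026) and Mbp (8.72 ± 0.029) were above. Mobp (5.58 ± 0.068) and Opalin (5.31) were not. Of 12 neuroblast and neuron markers 8 were above, a share of 66.7% near that of all genes. The defining genes Dcx (9.90), Tubb3 (9.22 ± 0.066), Rbfox3 (7.01) and Syt1 (6.34) were above. So were Stmn2 (7.08 ± 0.061), Dlx5 (7.98 ± 0.068), Snap25 (8.57) and Gad1 (6.74 ± 0.063). The calls of Syt1 and Gad1 ended at the 99th percentile. Sp8 (5.11), Slc17a7 (5.13 ± 0.16), Nefl (5.58 ± 0.036) and Nefm (5.31 ± 0.011) were not above. Of 10 ependymal markers 3 were above (30%, against 59.1% of all genes), with Foxj1 at 7.86 ± 0.024. The ciliary genes Rsph1 (5.66), Dnah5 (5.56) and Hydin (5.40) were not above. Microglia markers had 4 of 12 above (33.3%, against 59.1% of all genes): Cx3cr1 (6.66 ± 0.27), P2ry12 (6.05 ± 0.16), C1qa (6.12) and Cd68 (6.43). The defining genes Csf1r (5.55), Aif1 (4.73 ± 0.27) and Ptprc were not above. With the 99th percentile 0 of the 12 passed, against 44.9% of all genes. Endothelial markers had 2 of 10 above (20%, against 59.1% of all genes), Kdr (6.84 ± 0.064) and Egfl7 (5.83 ± 0.011). Of the 10, 0 were above the 99th percentile. Without array 1, 1 was above the reference level, against 12504 of all 22180 genes. Mural and fibroblast markers had 5 of 11 above (45.5%, against 59.1% of all genes), among them Rgs5 (7.25 ± 0.12) and Col1a1 (6.24), while Dcn (4.70) was not. What part each cell type had in the signal of a sorting antigen was not tested.

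Between the 3 arrays the antigens differed little. For 5 of the 10, Prom1, Fut4, Cd44, Cd9 and Cd81, the deposited values were exactly equal on all 3 arrays, as they were for 39.4% of all genes. An SD of 0 in these genes understates the true spread. Exact values also recurred within an array, and 43.2% to 50.7% of probe sets shared theirs with another probe set. Besides Fut4, Prom1 and Cd44 shared their value with 3 to 9 other probe sets on each array, and the 7 other antigens with none.

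The 5 antigens with unequal values were Cd24a, Vcam1, Ncam1, Thy1 and Lrig1. Their ranges over the arrays were 0.078 for Cd24a, 0.033 for Vcam1, 0.024 for Ncam1, 0.090 for Thy1 and 0.13 for Lrig1, beside a median range of 0.030 over all genes above the reference level and a 90th percentile of 0.265. Each of the 5 was at its highest on array 2, Vcam1 equally so on array 3. This is shared with the rest of the array: of 8235 genes above the reference level with unequal values, 77.6% were at their highest on array 2, ties included. Array 2 had the lowest median (5.85, against 5.87 on array 1 and 5.86 on array 3), so centring on the medians raises it against both others. After centring it was highest for 80.7% of these genes and for all 5 antigens, which for the antigens was fixed in advance. After quantile normalization the share was 41.8% for genes and 4 of 5 for the antigens, with Vcam1 then highest on array 3. None of these ranges was tested, since there is 1 group.

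**Figure D4:**
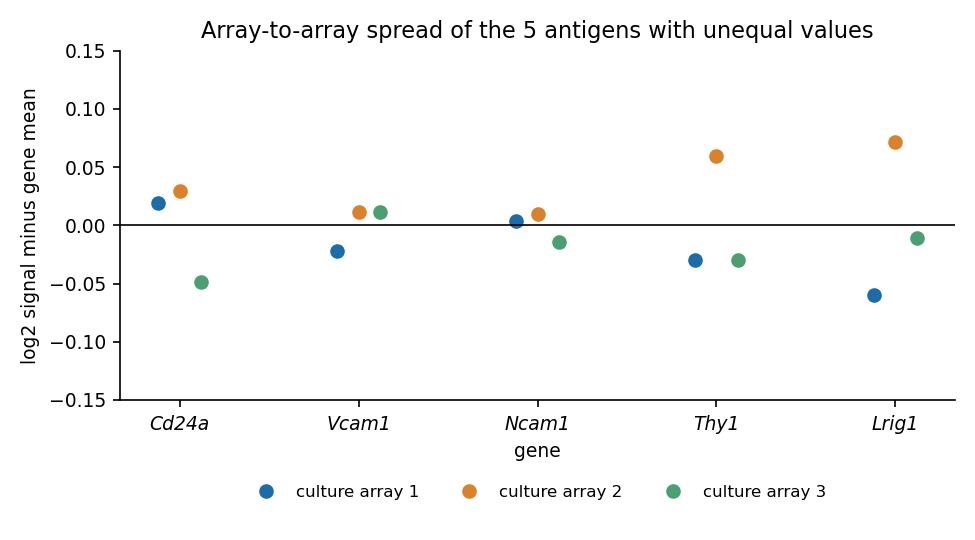
Deviation of each array's log2 signal from the gene's mean (vertical axis) for the 5 antigens with unequal values (horizontal axis), 1 point per array. Array 2 is highest for each gene, tied with array 3 for Vcam1, and no gene spans more than the 0.13 of Lrig1.

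Lrig1 had the widest range of the 10, and the genes with the most similar profile over the 3 arrays were looked up among those above the reference level. By Euclidean distance between mean-centred log2 values, the nearest were Ambra1 (distance 0.0034; 9.28, 9.41 and 9.33 on arrays 1, 2 and 3), Cox4i1 (distance 0.0061) and Zfp747 (distance 0.0066). With 732 of 13103 genes within a distance of 0.05, a profile over 3 arrays of 1 group does not single out genes.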

How the data were processed

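The authors deposited log2 signals for 41345 probe sets on 3 arrays, made with RMA (background correction, normalization between arrays, summary over probes) per the submitters' processing notes. Version and options are not given in the sources used here, and no probe-level data entered. Gene names come from the platform's annotation table: 23521 probe sets carried 1 symbol, 1814 several and 16010 none, which left 22180 genes. For a gene with several probe sets the one with the highest mean was used. All 10 antigens matched RefSeq by gene ID. No coordinates are given, because no genome build is named.

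Margins over each array's reference level were tested with limma 3.58.1 in R 4.3.3 (intercept, eBayes with intensity trend, one-sided, Benjamini-Hochberg over all 22180 genes, adjusted p under 0.05), after the step had been run on simulated data. In the simulation the level was the same on all 3 arrays, and genes set under it lay well under it. It therefore says nothing of false calls close to the level. For arrays, their number limits the precision, here n = 3. Lists are described by counts and medians without a test, and they share genes. The members and lists were chosen with earlier results of these data known. All 10 antigens are named. Lists of 12 or fewer around them are named in full and longer ones by examples in the order written, up to 6 above and 6 not above. Of cell type lists the defining markers are named, with a few others. Listed genes with no probe set of their own were not analysed here. Other alternatives were the percentile (90, 99), the reference genes, the probe set rule, scaling, the trend and leaving out each array. Figures used matplotlib 3.10.9.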

Additional observations from a re-analysis of the deposited data

How the results depend on the processing

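The margin of each of the 10 antigens was recomputed under 11 alternatives. Of the 110 margins, 26 could not change by construction: all 10 under median centring, which moves a gene and its reference level alike, and those of the 8 antigens with 1 probe set under both other probe set rules. The other 84 include all 10 without the intensity trend, where the margin is fixed too and only its test could change. Some of these had little room to change their call as well. The 90th percentile lowered the level on every array, which raised the margins of the 9 antigens already above. The 99th percentile and the other reference genes raised it on every array, which kept Fut4 under. Of the 84, 82 kept their direction and their call. The exceptions were Fut4 at the 90th percentile of the receptors, where its margin turned to 0.14 (limma adjusted p = 0.0359), and Thy1 with the other reference genes, where the margin of 0.44 no longer passed (limma adjusted p = 0.102). The cause was not tested beyond the change of level itself. The count of antigens above was 10 at the 90th percentile, 8 with the other reference genes and 9 under the other 9 alternatives, which include leaving out each array in turn (9 to 9 above). The count of all genes above was 9658 to 14792, and of the 233 measured list genes outside the 10 it was 123 to 182, against 13104 and 157 in the main setting. Lists with several genes near the reference level moved most. VCAM1-related genes had 3 of 13 above at the 99th percentile, with the other reference genes and without array 1. Exclusion-gate antigens had 4 of 10 above at the 90th percentile and 2 after quantile normalization. NCAM-related genes had 7 of 12 above at the 99th percentile and with the other reference genes. Over all alternatives the ependymal list had 1 to 7 of 10 above and the microglia list 0 to 8 of 12. The endothelial list had 0 to 4 of 10 and the mural list 3 to 6 of 11. The upper ends came at the 90th percentile, where 66.7% of all 22180 genes were above. The share of all genes was 44.9% at the 99th percentile and 43.5% with the other reference genes. Without array 1, 12504 of all genes were above, and after quantile normalization 13173. Leaving out each array in turn gave 2 to 3 for the ependymal list and 4 for the microglia list. It gave 1 to 2 for the endothelial list and 5 for the mural list. Calls near the reference level in these lists thus moved more with the level chosen than with the arrays left out, and these data do not settle them. No paired analysis was possible because there is 1 group.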
